A study of Mus musculus with 2 samples.

Results

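The 9 genes described here encode transcription factors and coactivators of the nephron progenitors: Six2, Six4, Eya1, Osr1, Sall1, Cited1, Cited2, Meox1 and Wt1. They were taken as a named list and were found by gene symbol, through the Ensembl identifier without its version in the GENCODE M21 annotation. All 9 were present, of 43346 Ensembl genes in the deposited tables. Total RNA was sequenced from newborn mouse kidney (strain B6NCrl, postnatal day 0), with RNA longer than 200 nt as input. Each of the 2 libraries held both kidneys of 1 pup, and the labels give both pups the same mother and record no sex. The libraries form 1 group, with no genotype, treatment or second age to compare. The error of every value is therefore the spread between 2 littermates, which leaves out variation between litters, and no p-value can be had. Levels are given as the deposited TPM (transcript abundance per length, scaled to a fixed total in each library), and coordinates are those of mm10.

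Nephron progenitors form the cap mesenchyme, a layer of cells around each tip of the branching ureteric bud. They either renew themselves or, on Wnt signals, become epithelial vesicles that grow into nephrons, and in the mouse this pool is used up in the first days after birth. Six2, a homeodomain protein of the sine oculis family, and EYA cofactors hold the progenitor state, the zinc-finger proteins Osr1, Sall1 and Wt1 act before and within it, and the CITED proteins bind the histone acetyltransferases CBP and p300.

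The libraries held 41584961 expected counts in pup 1 and 48823952 in pup 2. The tissue label was set against marker genes. All 8 kidney epithelium genes were detected (at least 1 TPM in both pups), with a summed level of 1307 TPM in pup 1 and 1299 TPM in pup 2. Of the genes of organs that lie near the kidney or also use these factors, 2 of 7 skeletal muscle genes, 2 of 7 adrenal genes and 1 of 7 gonad genes were detected. Their summed levels were 4.85 and 4.27 TPM for muscle, 6.24 and 6.64 TPM for adrenal and 1.48 and 1.68 TPM for gonad, in pup 1 and pup 2. Those detected were Tnnt3 and Acta1 of muscle, Pnmt and Mc2r of adrenal and Insl3 of gonad. The highest of them was Pnmt, at 3.07 TPM in pup 1 and 2.81 TPM in pup 2. The myogenic regulators Myod1 and Pax7 and the gonad genes Hsd17b3 and Foxl2 were at 0 in both libraries. Myf5 and Myog, also myogenic regulators, had 0 counts in pup 1 and 3 each in pup 2. In whole kidneys, fewer cells of a type and less RNA per cell cannot be told apart.

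All 9 progenitor factors were detected, against 33.9% of all Ensembl genes and 61.5% of the 21474 protein-coding genes. Their levels spread widely, and the coactivator Cited1 and the zinc-finger gene Wt1 stood highest. Cited1 averaged 97.4 ± 2.60 TPM, Wt1 76.7 ± 0.523 TPM and Cited2 69.0 ± 4.81 TPM (SD, n = 2 here and below). Sall1 and Eya1 came next at 20.4 ± 1.01 TPM and 18.1 ± 1.63 TPM. Six2 stood at 12.2 ± 4.17 TPM, Meox1 at 11.4 ± 0.0495 TPM, Osr1 at 7.42 ± 0.919 TPM and Six4 at 2.02 ± 0.325 TPM. The median of the 9 genes was 19.3 TPM in pup 1 and 17.0 TPM in pup 2, beside 16.2 and 15.4 TPM for the median detected gene. Among protein-coding genes the ranks ran from 1588 for Cited1 to 12362 for Six4.

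**Figure D1:**
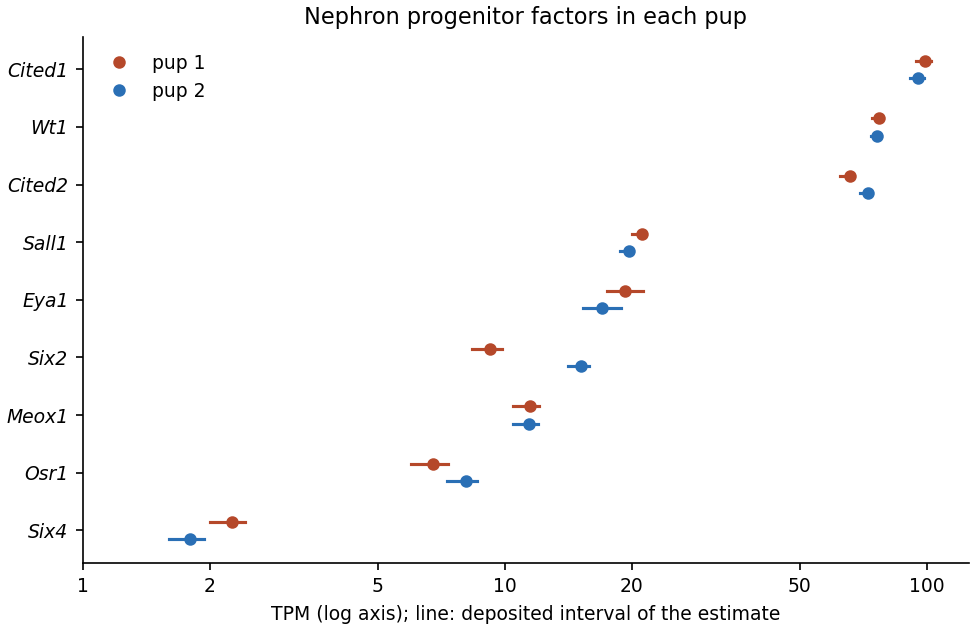
TPM (log axis) of the 9 nephron progenitor factors, with 1 point for each pup and a line for the deposited lower and upper bounds of that estimate. Six2 has the points farthest apart relative to its level, at 9.21 TPM in pup 1 and 15.1 TPM in pup 2, and Six4 is the lowest gene in both pups.

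Neighbours in this order were set apart where the difference of their means was larger than the sum of their SDs. This held for 6 of the 8 neighbouring pairs. Sall1 and Eya1 differed by 2.31 TPM, within the summed SD of 2.64 TPM, and Six2 and Meox1 by 0.745 TPM, within 4.22 TPM. Eya1 and Six2 were only just apart, at a difference of 5.96 TPM against 5.80 TPM. Six2 lay below Meox1 in pup 1 and above it in pup 2. The order of the means was the same in the deposited posterior mean TPM and in FPKM. Both come from the same reads. Within each library FPKM is TPM on another scale, so the order in FPKM could hardly differ.

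Six2, the homeodomain factor that keeps progenitors from differentiating too early, had 9.21 TPM in pup 1 (552 expected counts) and 15.1 TPM in pup 2 (1114 expected counts). The higher value was that of pup 2. Deposited bounds ran from 8.35 to 9.87 TPM in pup 1 and from 14.1 to 15.8 TPM in pup 2, without overlap. Such bounds describe the estimate in 1 library, not the variation between animals. The gene (ENSMUSG00000024134.11) lies on chromosome 17, 85684277 to 85688274, minus strand. All counts of both pups went to 1 of its 2 annotated transcripts, Six2-202 (2119 nt), and none to Six2-201 (1812 nt). The posterior mean estimates gave Six2-201 2.20% of the gene's TPM in pup 1 and 2.23% in pup 2. The sequence just upstream of Six2-202 is shown because every read was assigned to this transcript. It covers chr17:85688275-85688504 on the minus strand, taken from the RefSeq promoter table of GRCm38.p6, and capitals mark a CCAAT box and 2 GC boxes.
Six2-202 upstream: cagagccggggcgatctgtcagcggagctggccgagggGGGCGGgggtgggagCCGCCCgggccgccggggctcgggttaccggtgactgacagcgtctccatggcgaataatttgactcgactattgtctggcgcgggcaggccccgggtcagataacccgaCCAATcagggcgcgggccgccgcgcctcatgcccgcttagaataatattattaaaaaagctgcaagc
The CCAAT box ended 62 bases before the annotated start of Six2-202, and the GC boxes 186 and 171 bases before it. The promoter table places the start 20 bases farther downstream, at the annotated start of Six2-201. A CCAAT box occurred in 32.2% and a GC box in 29.8% of 32851 promoter windows of the same length. The stretch was 64.8% G and C and held 24 CpG dinucleotides, more than 90.9% of those windows.

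Six4, a homeodomain relative of Six2, had 2.25 TPM in pup 1 (422 expected counts) and 1.79 TPM in pup 2 (412 expected counts). Both values were low, and pup 1 was higher. The deposited bounds of 2.00 to 2.42 TPM in pup 1 and 1.60 to 1.94 TPM in pup 2 did not overlap. The gene (ENSMUSG00000034460.9) lies on chromosome 12, 73099609 to 73113456, minus strand. Its transcript Six4-201 held 93.0% of the gene's TPM in pup 1 and 95.1% in pup 2, and the other, Six4-202, held 6.97% and 4.91%. Six2 was 4.09 times as high as Six4 in pup 1 and 8.44 times as high in pup 2.

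Six2 also stood above the other relatives described here in both animals. Six5, which is broadly expressed, had 6.54 TPM in pup 1 and 6.03 TPM in pup 2. Six3 and Six6, known from eye and forebrain, had no counts. A gene with no counts could still have had up to 3, which is 0.0721 CPM in pup 1 and 0.0614 CPM in pup 2 (CPM, the count scaled to a fixed library total).

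Eya1, a protein phosphatase that binds Six2 and is needed for progenitor survival, had 19.3 TPM in pup 1 (1465 expected counts) and 17.0 TPM in pup 2 (1352 expected counts). Pup 1 was higher, but the deposited bounds of 17.5 to 21.3 TPM in pup 1 and 15.3 to 18.9 TPM in pup 2 overlapped. The gene (ENSMUSG00000025932.10) spans chromosome 1, 14168954 to 14310235, minus strand. Its 9 annotated transcripts shared the signal more evenly than those of any of the other 8 genes. Eya1-201, a complete coding transcript of 4347 nt, held 29.3% of TPM in pup 1 and 20.5% in pup 2. Eya1-207, an incomplete model of 725 nt, held 24.8% in pup 1 and 26.5% in pup 2. The leading transcript was therefore Eya1-201 in pup 1 and Eya1-207 in pup 2, and Eya1 was the only one of the 9 genes whose leading transcript differed between the animals.

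Short models weighed heavily in the Eya1 level. The 4 incomplete coding models (430 to 725 nt) held 41.4% of TPM in pup 1 and 49.1% in pup 2, but only 9.58% and 13.2% of the counts in pup 1 and pup 2. The 4 complete coding transcripts held 80.8% of the counts in pup 1 and 77.0% in pup 2, which gave 9.97 TPM in pup 1 and 7.62 TPM in pup 2. Summed over complete transcripts alone, Eya1 would stand below Meox1 in both pups. The effective length of the gene, an average over its transcripts weighted by level, was 2563 bases in pup 1 and 2184 bases in pup 2, so its ratio between the pups also depends on the unit.

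EYA paralogs were all detected. Eya1 held 46.4% of the family's summed TPM in pup 1 and 48.8% in pup 2, ahead of Eya3 at 12.4 and 10.01 TPM, Eya2 at 6.65 and 5.04 TPM and Eya4 at 3.16 and 2.73 TPM in pup 1 and pup 2. DACH proteins are corepressors in the same complexes. Dach1 stood at 14.99 TPM in pup 1 and 14.72 TPM in pup 2, and Dach2 at 6.32 TPM in pup 1 and 5.41 TPM in pup 2.

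**Figure D2:**
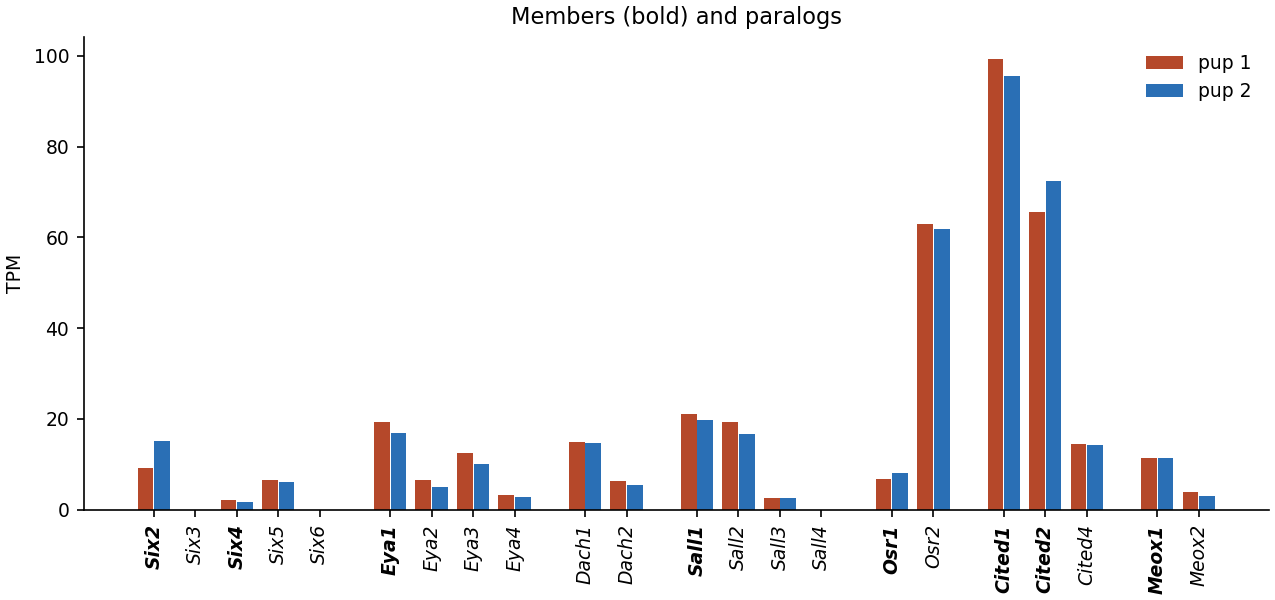
TPM of 8 of the 9 factors (bold; Wt1 is not drawn) and of paralogs, with 1 bar for pup 1 and 1 for pup 2 for each gene. Each factor drawn stands above its paralogs drawn except Six4, Cited2 and Osr1, and Osr2 stands near 62 TPM in both pups where Osr1 stays below 10 TPM.

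Osr1, a zinc-finger factor of the intermediate mesoderm that is also needed for progenitor renewal, had 6.77 TPM in pup 1 (384 expected counts) and 8.07 TPM in pup 2 (563 expected counts). Pup 2 was higher, and the deposited bounds of 6.00 to 7.33 TPM in pup 1 and 7.29 to 8.59 TPM in pup 2 just overlapped. A single transcript, Osr1-201, was quantified on the plus strand of chromosome 12, 9574441 to 9581500 (gene ENSMUSG00000048387.7). Its paralog Osr2 was far higher, at 62.9 TPM in pup 1 and 61.8 TPM in pup 2, and Osr1 held 9.72% of the pair's summed TPM in pup 1 and 11.5% in pup 2. A non-coding gene on the other strand, 1700022H16Rik, was at 0 in both libraries. In M21 it ends at 9570585, so it overlaps the start of the Osr1 gene (9570116) but not Osr1-201.

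Sall1, a zinc-finger factor without which the ureteric bud fails to invade the mesenchyme and which recruits the NuRD repressor complex, had 21.1 TPM in pup 1 (3231 expected counts) and 19.7 TPM in pup 2 (3706 expected counts). The animals differed little, although the deposited bounds of 20.03 to 21.5 TPM in pup 1 and 18.8 to 20.02 TPM in pup 2 did not overlap. The gene (ENSMUSG00000031665.6; chromosome 8, 89027235 to 89044162, minus strand) had 1 quantified transcript. Sall2 stood almost as high, at 19.2 TPM in pup 1 and 16.7 TPM in pup 2, against 2.54 and 2.55 TPM for Sall3 in pup 1 and pup 2. Sall4, known from pluripotent cells, had 1 expected count in each pup. All 13 NuRD genes measured were detected, from the histone-binding subunit Rbbp7 at 367 ± 23.4 TPM to the scaffold subunit Gatad2b at 6.76 ± 0.940 TPM.

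Wt1, a zinc-finger factor that progenitors need for survival and podocytes keep at high level, had 77.1 TPM in pup 1 (5993 expected counts) and 76.3 TPM in pup 2 (7354 expected counts). The pups were nearly equal, and the bounds of 74.1 to 78.6 TPM in pup 1 and 73.8 to 77.8 TPM in pup 2 overlapped. The gene (ENSMUSG00000016458.9) spans chromosome 2, 105126529 to 105173616, plus strand. Podocyte markers were present beside it: 7 of 8 were detected, with a summed level of 213 TPM in pup 1 and 219.8 TPM in pup 2. Among them podocalyxin, Podxl, stood at 68.5 ± 0.276 TPM and the transcription factor Foxc2 at 30.6 ± 4.72 TPM, and the lowest was Lmx1b at 0.685 ± 0.0212 TPM. Of the genes listed for mesothelium, which also uses Wt1, 4 of 5 measured were detected, with a summed level of 116.5 TPM in pup 1 and 129.7 TPM in pup 2. Most of this sum came from Krt19 (75.69 and 76.19 TPM in pup 1 and pup 2) and Upk1b (29.37 and 39.4 TPM). Upk3b stood at 6.42 and 7.23 TPM, Msln at 4.67 and 6.43 TPM and Lrrn4 at 0.37 and 0.43 TPM. The part of progenitors, podocytes and mesothelium in the Wt1 level was not tested.

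Wt1 transcripts differ at exon 5 and at the end of exon 9, and the sequences show both choices. Skipping of exon 5 removes 51 bases, and a second splice donor in exon 9 removes 9 bases that encode the KTS insertion between the last zinc fingers. In the first sequence capitals mark the 9 added bases (chr2:105170010-105170018, plus strand), the second is the same junction without them, and in the third capitals mark exon 5 (chr2:105144142-105144192, plus strand) between 12 bases of each neighbouring exon. All are from GENCODE M21 transcripts.
Wt1-205 exon 9 to exon 10: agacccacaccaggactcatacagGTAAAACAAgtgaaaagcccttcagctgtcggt
Wt1-202 exon 9 to exon 10: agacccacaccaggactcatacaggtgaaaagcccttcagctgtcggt
Wt1 exon 5 with 12 flanking bases: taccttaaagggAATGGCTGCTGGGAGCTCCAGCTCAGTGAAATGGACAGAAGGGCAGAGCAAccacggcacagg
Wt1-205, which starts at the upstream first exon and holds both exon 5 and the 9 bases, was the leading transcript with 53.2% of the gene's TPM in pup 1 and 54.8% in pup 2. Wt1-201 starts at an internal first exon, lacks exon 5 and holds the 9 bases, and had 21.4% in pup 1 and 23.3% in pup 2. Wt1-202 starts at the same internal exon, holds exon 5 and lacks the 9 bases, and had 19.4% in pup 1 and 17.1% in pup 2. The other 5 models each held under 5% on average.

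Summed over the models that show each choice, transcripts with the 9 bases held 74.99% of TPM in pup 1 and 78.97% in pup 2, and those without them 20.9% and 17.8%. The ratio of both forms was 3.59 in pup 1 and 4.44 in pup 2 (4.02 ± 0.600). Transcripts with exon 5 held 72.6% in pup 1 and 71.9% in pup 2, against 23.2% and 24.9% for those without it, a ratio of 3.01 ± 0.166. The upstream first exon held 55.1% in pup 1 and 56.4% in pup 2, and the internal one 40.8% and 40.4%. The annotation joins these choices in few combinations: no complete model has the upstream first exon together with the short exon 9, and each combination it lacks is counted under another model. These shares are therefore estimates for annotated combinations, not measurements of each splice site. The antisense gene Wt1os begins 18 bases from the Wt1 start and stood at 9.57 TPM in pup 1 and 9.32 TPM in pup 2. Whether reads were counted by strand is not stated, but the 2 genes do not overlap.

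**Figure D3:**
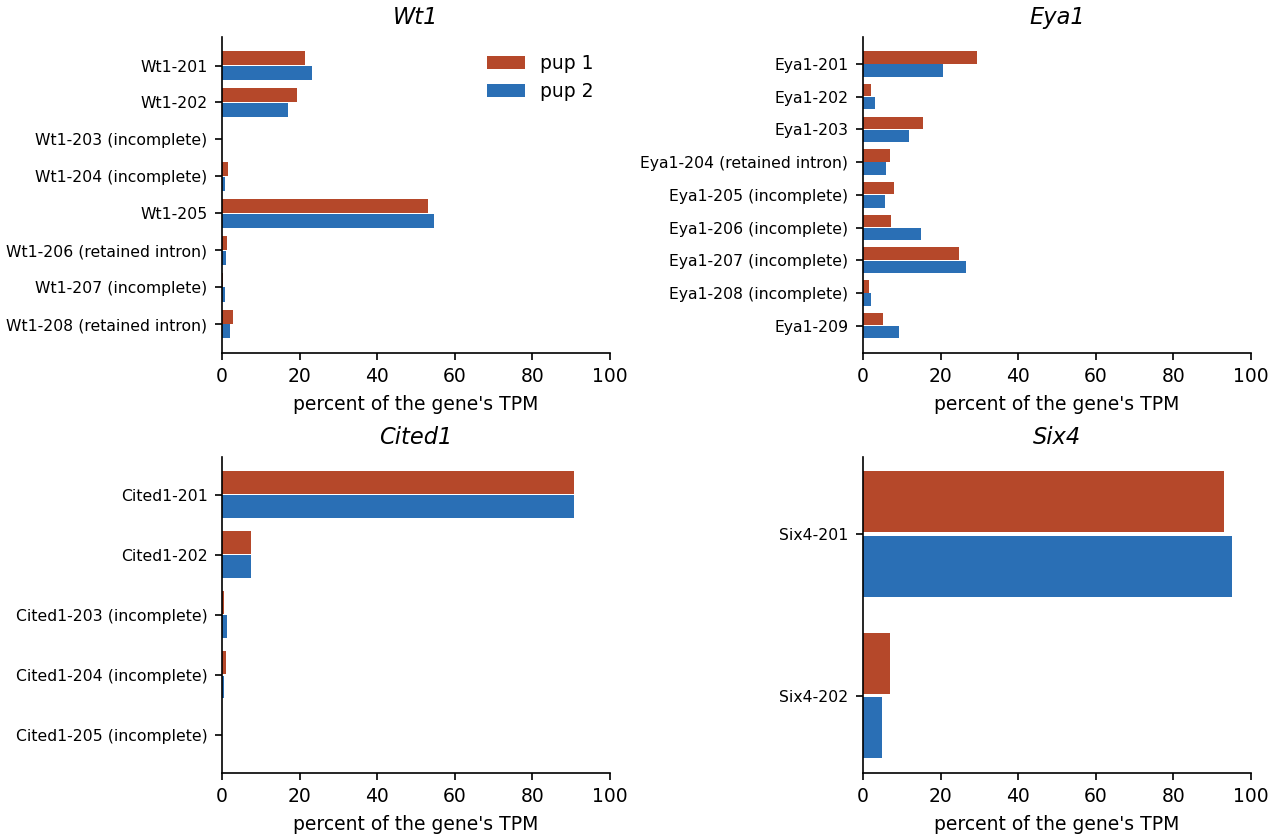
Percent of each gene's TPM held by each annotated transcript of Wt1, Eya1, Cited1 and Six4, with pup 1 above pup 2. Wt1, Cited1 and Six4 keep the same leading transcript in both pups, while in Eya1 the lead is with Eya1-201 in pup 1 (29.3%) and with the incomplete model Eya1-207 in pup 2 (26.5%).

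Cited1, a coactivator that marks the least committed progenitors, had 99.2 TPM in pup 1 (2387 expected counts) and 95.5 TPM in pup 2 (2826 expected counts). It was the highest of the 9 genes in both animals, and the deposited bounds of 94.02 to 102 TPM in pup 1 and 91.2 to 98.4 TPM in pup 2 overlapped. The gene (ENSMUSG00000051159.12) lies on chromosome X, 102247381 to 102252181, minus strand. Cited1-201 held 90.9% of TPM in both pups and Cited1-202, which starts farther downstream, 7.47% in pup 1 and 7.41% in pup 2. Cited1 stood 10.8-fold above Six2 in pup 1 and 6.32-fold above it in pup 2.

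Cited2, which competes with the hypoxia factor Hif1a for CBP and p300 and assists AP-2 factors, had 65.6 TPM in pup 1 (3637 expected counts) and 72.4 TPM in pup 2 (4938 expected counts). Pup 2 was higher, and the bounds of 62.3 to 66.5 TPM in pup 1 and 69.3 to 73.3 TPM in pup 2 did not overlap. The gene (ENSMUSG00000039910.9; chromosome 10, 17723218 to 17725674, plus strand) had 1 quantified transcript. Cited4 stood at 14.4 TPM in pup 1 and 14.3 TPM in pup 2. Cited1 thus held 55.4% of the family's TPM in pup 1 and 52.4% in pup 2, and Cited2 36.6% and 39.7%.

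Sequence upstream of Cited1-201 and Cited2-201, the highest members of 1 family, is shown to compare with that of Six2. The first covers chrX:102252182-102252431 on the minus strand and the second chr10:17722978-17723217 on the plus strand, both from the RefSeq promoter table of GRCm38.p6. Capitals mark matches to a TATA box and a GC box in Cited1 and to 2 GC boxes in Cited2.
Cited1-201 upstream: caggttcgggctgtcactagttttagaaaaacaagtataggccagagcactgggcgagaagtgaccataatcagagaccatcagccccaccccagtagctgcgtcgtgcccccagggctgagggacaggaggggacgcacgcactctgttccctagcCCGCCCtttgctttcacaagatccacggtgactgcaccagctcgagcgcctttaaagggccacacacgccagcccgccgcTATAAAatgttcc
Cited2-201 upstream: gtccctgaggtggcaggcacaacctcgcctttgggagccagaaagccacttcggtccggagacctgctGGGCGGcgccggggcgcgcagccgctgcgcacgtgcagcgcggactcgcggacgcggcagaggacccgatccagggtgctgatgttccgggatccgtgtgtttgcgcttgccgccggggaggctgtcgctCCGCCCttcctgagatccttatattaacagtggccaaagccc
The motifs searched on both strands were the TATA box (TATAAA), the CCAAT box, the GC box (GGGCGG), the MEF3 site of the Six2 family (TCANGTTTC) and the site of EGR proteins and Wt1 (GCGNGGGCG), chosen with the sequences in view. The GC box can share letters with GCGNGGGCG. The TATAAA match ended 7 bases before the annotated Cited1-201 start, and 12.4% of windows of that length hold one. Whether this or any other match acts as a promoter element was not tested. The Cited1 stretch held 13 CpG and the Cited2 stretch 25, beside 24 in the Six2 stretch. TCANGTTTC and GCGNGGGCG were in none of the 3 stretches, and occur in 0.989% and 4.70% of windows of 250 bases.

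Partners of the CITED proteins were present. Crebbp, which encodes CBP, stood at 23.1 TPM in pup 1 and 20.1 TPM in pup 2, and Ep300, which encodes p300, at 7.24 and 7.22 TPM. Of 6 other partner genes of Cited2 and Wt1, 5 were detected. The Wt1-binding splicing regulator Wtap led them at 119 ± 1.27 TPM, followed by Hif1a at 61.0 ± 1.48 TPM and the AP-2 gene Tfap2b at 50.02 ± 0.643 TPM. Tfap2c was the lowest, at 0.18 TPM in pup 1 and 0.42 TPM in pup 2.

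Meox1, a homeobox factor best known from somites, had 11.45 TPM in pup 1 (723 expected counts) and 11.38 TPM in pup 2 (884 expected counts). Its SD was the smallest of the 9 genes, and the bounds of 10.4 to 12.1 TPM in pup 1 and 10.5 to 11.96 TPM in pup 2 nearly coincided. The gene (ENSMUSG00000001493.9; chromosome 11, 101877510 to 101894374, minus strand) had 1 quantified transcript, and the antisense gene Gm11551 inside it was at 0. Meox2 stood at 3.95 TPM in pup 1 and 3.04 TPM in pup 2, so Meox1 held 74.4% of the pair's TPM in pup 1 and 78.9% in pup 2.

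Of the 9 factors, Six2 differed most between the animals under TMM scaling. On TMM-scaled counts its log2 ratio of pup 1 over pup 2 was -0.80, with a counting interval of -0.95 to -0.65, so that pup 2 was 1.74-fold higher. None of the 9 genes passed 2-fold, as did 0.613% of the 15161 genes that had 50 or more expected counts in 1 or both pups (0.442% lower in pup 1). Six2 alone passed 1.5-fold, beside 2.59% of genes in either direction and 1.85% lower in pup 1. Among 4922 genes whose mean TPM was within 2-fold of that of Six2, 36 (0.731%) had a ratio at least as far from 0. Intervals are exact binomial at 95% and cover counting error only, since reads without molecular identifiers are not independent molecules, and with 1 animal on each side the difference has no replicate check.

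Under TMM the other 8 genes differed less. Eya1 had a log2 ratio of 0.32 (0.22 to 0.43), with 5.06% of genes of its level at least as far apart. Osr1 had -0.34 (-0.53 to -0.15; 8.22% of genes of its level) and Cited2 -0.23 (-0.29 to -0.17; 5.71%). Six4 had 0.24 and Wt1 -0.09, and Meox1, Cited1 and Sall1 lay between -0.08 and 0.01. The deposited TPM bounds of the pups were apart for 4 of the 9 genes (Six2, Six4, Sall1 and Cited2), beside 27.4% of detected genes. The deposited posterior SD of the count was 0 in both pups for all 9 genes, as for 65.8% of detected genes.

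**Figure D4:**
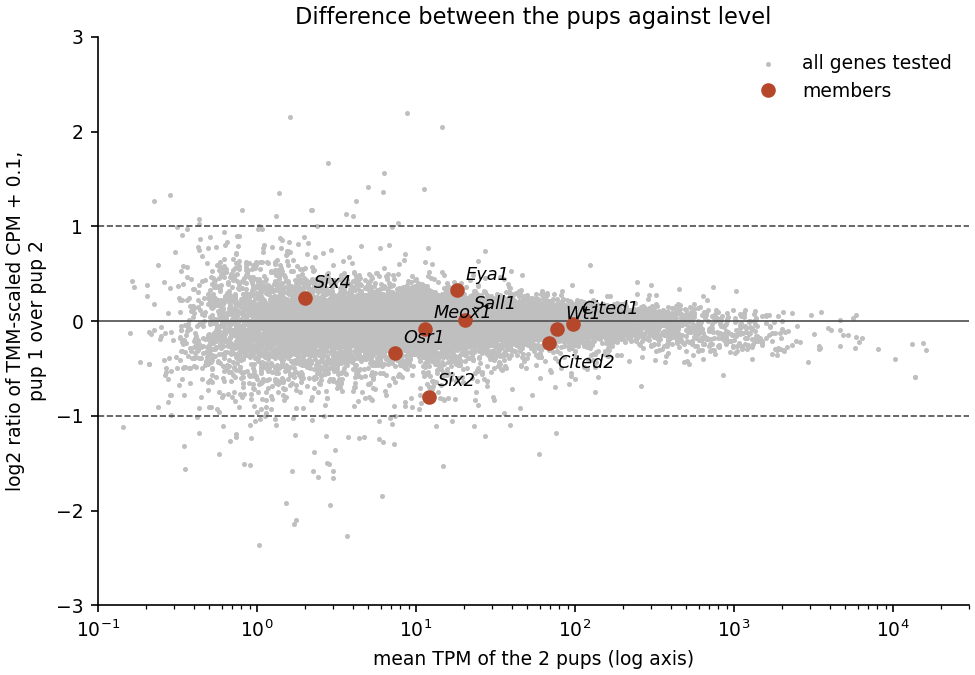
Log2 ratio of TMM-scaled CPM + 0.1 of pup 1 over pup 2 against the mean TPM (log axis), for all genes tested (grey) and the 9 factors (red), with dashed lines at 2-fold. Six2 at -0.80 lies at the lower edge of the genes of its level, and the other 8 factors lie between -0.34 and 0.32.

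Six2 was lower in pup 1 under every scaling tried. Spike-in scaling, which rested on only 307 spike-in counts in pup 1 and 469 in pup 2, moved the median of all tested genes by 0.40 on the log2 scale and Six2 to -0.40. Such a factor shifts every gene alike, so it leaves the place of Six2 among the other genes as it was. It does change the size of each ratio. Under spike-ins Eya1 (0.72), Six4 (0.64) and Sall1 (0.41) had ratios larger in size than that of Six2. In TPM the Six2 ratio was -0.71, with the median of all tested genes at 0.08. Signs of the small ratios were not stable: 6 of the 9 genes were lower in pup 1 under TMM, against 3 in TPM and 1 under spike-ins.

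The other genes of the progenitor pathway differed between the animals by less than 2-fold. All 15 other progenitor genes were detected. Under TMM 9 of 15 were lower in pup 1, against 8 of 15 in TPM and 1 of 15 under spike-ins, with a median log2 TMM ratio of -0.15 beside -0.08 for the 9 factors and -0.00 for all genes tested. They were led by Gas1, a membrane protein that aids Hedgehog signals, at 81.3 ± 16.2 TPM, and by the proliferation factor Mycn at 66.4 ± 4.36 TPM. The homeobox gene Uncx stood at 44.6 ± 3.12 TPM and Crym, a thyroid hormone-binding protein, at 34.5 ± 1.77 TPM. Hoxc11 was the lowest at 1.34 ± 0.134 TPM, while its paralogs Hoxa11 and Hoxd11, which act with Eya1 and Pax2 on Six2 and Gdnf in mice, stood at 21.3 ± 1.27 TPM and 17.6 ± 1.97 TPM.

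Signals that act on progenitors and their effectors were all detected, 13 of 13, with a median log2 ratio of -0.01. Beta-catenin, Ctnnb1, led at 289.9 ± 7.19 TPM, followed by the receptor gene Fgfr2 at 70.6 ± 6.99 TPM, Fgfr1 at 53.3 ± 1.66 TPM and the Wnt effector Tcf7l2 at 43.4 ± 2.01 TPM. The ligand Fgf20 was lowest at 1.79 ± 0.262 TPM. Genes of committing nephrons, 11 of 11 detected, had a median log2 ratio of -0.08. Cyclin D1, Ccnd1, stood at 173 ± 12.01 TPM, and the Notch target Hes5 was lowest at 4.88 ± 0.325 TPM. Genes of the Groucho family, which includes corepressors that homeodomain proteins can recruit, were all detected. They ran from Aes at 398 TPM in pup 1 and 396 TPM in pup 2 to Tle4 at 9.15 ± 0.841 TPM. Of the Tle genes listed, Tle2 was highest at 24.4 ± 0.346 TPM.

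Beside Six2, some genes of the other lists also had lower values in pup 1. They were picked for their ratios, after the values were seen. Wnt4, which drives progenitors into epithelium, had 14.45 TPM in pup 1 and 21.15 TPM in pup 2, a log2 ratio of -0.64. Foxd1, the factor of stromal progenitors, had 3.75 TPM in pup 1 and 5.33 TPM in pup 2 (-0.59), and Gas1 had 69.85 TPM in pup 1 and 92.77 TPM in pup 2 (-0.50). Msln (-0.54) and Upk1b (-0.51), of the mesothelium list, lay between Foxd1 and Gas1. The 8 stroma genes together had a median ratio of -0.00, with 4 of 8 lower in pup 1 and summed levels of 1405 TPM in pup 1 and 1233 TPM in pup 2. Under TMM scaling all 5 mesothelium genes measured were lower in pup 1 (median -0.27), and 7 of 8 podocyte genes (median -0.11). Counts in TPM were 5 of 5 and 3 of 8 for these lists, and under spike-ins 2 of 5 and 1 of 8. Of all genes tested, 50.7% were lower in pup 1 under TMM, 31.1% in TPM and 4.62% under spike-ins. Under TMM, none of the 122 listed genes with enough counts to be tested passed 2-fold. Past 1.5-fold were 3 (Six2, Wnt4 and Foxd1), all lower in pup 1. Of all genes tested, 0.613% passed 2-fold and 2.59% passed 1.5-fold in either direction, and 1.85% were 1.5-fold lower in pup 1. The other 23 measured genes of the lists had too few counts to be tested. The part of cell composition in the Six2 difference was not tested.

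**Figure D5:**
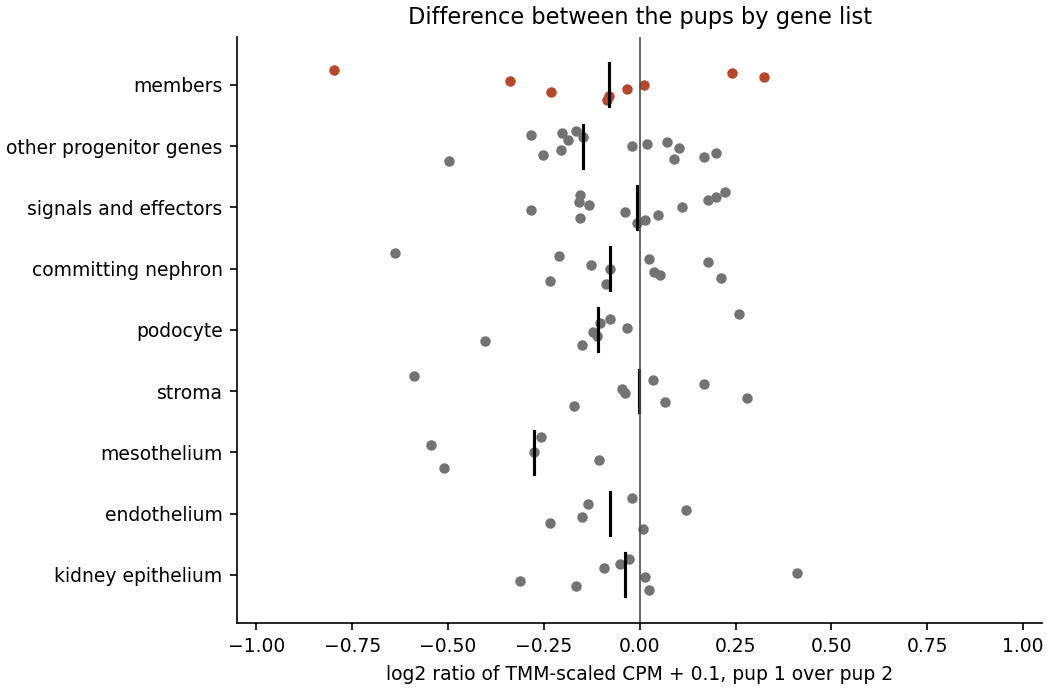
Log2 ratio of TMM-scaled CPM + 0.1 of pup 1 over pup 2 for the tested genes of 9 lists (1 point a gene; the other lists are not drawn), with the list median as a vertical bar. The 9 factors centre on -0.08 with Six2 at -0.80, and of the lists drawn the mesothelium list has the lowest median, at -0.27.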

How the data were processed

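Total RNA-seq libraries of both kidneys of 2 pups were used as 1 group. The authors deposited, per the file headers, a gene and a transcript table per library with expected counts (estimated reads, not normalized), TPM and FPKM, posterior mean versions of these, the posterior SD of the count, and lower and upper bounds of TPM and FPKM whose level is not stated. Transcript shares are the deposited percent of a gene's TPM (IsoPct). The text deposited with each library names mm10 and GENCODE M4; the aligner, the counter, their versions and the strand setting were not given in the sources used here. Deposited effective lengths were 99 bases shorter than every transcript. Genes were named and placed by GENCODE M21, which named 42462 of 43346; 27 of the 30 transcripts had the same length there, and Cited2-201, Osr1-201 and Sall1-201 did not.

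Between-pup ratios were log2 of CPM + 0.1 with TMM factors (edgeR 4.0.16, R 4.3.3) on expected counts; DESeq2 1.42.0 gave other size factors. Intervals and tables used Python 3.11.15, pandas 2.3.3, NumPy 2.4.6 and SciPy 1.17.1, and figures Matplotlib 3.10.9. Both ratios and list counts were first tested on simulated data. With 1 group there is no test. The members and lists were chosen with earlier results of these data known. Named genes were the 9 members, all paralogs, the 4 highest and the lowest of each other list and any past 2-fold, of which not all are described, and transcripts of at least 5% on average. Hoxa11, Hoxd11, Myf5, the markers at 0 and the genes said to be picked for their ratios were named beside this rule. Results for some listed genes are not reported here. Alternatives were other scalings, added constants, count filters, estimates, units and leaving out a pup.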

Additional observations from a re-analysis of the deposited data

How the results depend on the processing

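No paired analysis was possible because there is 1 group of 2 pups. Of the main results, 32 alternative values stayed within the spread or within 1.5 times the count, and 7 moved. Some of the 32 could not move: with 2 pups, a level with 1 left out always lies within the SD of the mean. The median level of the 9 genes was 18.1 TPM (17.0 to 19.3 leaving out 1 pup) and 13.2 in FPKM, which is another scale by construction. The count of the 9 genes past the threshold was 0 at 2-fold and, under TMM, 1 at 1.5-fold. The count of all genes past 2-fold was 93, and 38 with 1 added to CPM, 402 with at least 10 counts, 639 with no filter and 392 at 1.5-fold. The filters change the number of low genes kept, 1.5-fold is a lower threshold, and a larger added constant shrinks the ratios of low genes. The median ratio of the 9 genes was -0.08 and 0.32 with spike-in scaling, a shift shared by all genes. All 9 genes were detected in each pup alone, which is fixed because detection already required both pups. At 5 TPM 8 were detected, and Six4 was lost. The count of genes whose leading transcript was that of the mean was 9, and 8 in pup 1 alone, because of Eya1. Signs of single ratios that were not called did change under spike-ins: Cited1 (-0.03 to 0.37), Wt1 (-0.09 to 0.32), Meox1 (-0.08 to 0.32), Cited2 (-0.23 to 0.17) and Osr1 (-0.34 to 0.06). In TPM, Cited1 (0.05), Wt1 (0.01) and Meox1 (0.01) changed sign. Depth limits the genes of lowest count, Osr1 with 384 and 563 expected counts in pup 1 and pup 2 and Six4 with 422 and 412. Depth also limits the division of Eya1 and Wt1 reads among transcripts.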
